A study of Mus musculus with 6 samples.

Results

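The matrix proteases and their inhibitors described here are 35 mouse genes of 25006 in the count files. They are 12 matrix metalloproteases (MMP), 8 ADAM proteases, 10 ADAMTS proteases, 3 tissue inhibitors of metalloproteases (TIMP), and the plasminogen activator gene Plat with the protease inhibitor gene Serpine2. The genes were given as a list by name, and all 35 matched an Ensembl identifier of the files through the GENCODE annotation. RNA was sequenced from a pair of stable cell lines, with 3 libraries each. Both derive from MOSE cells, which come from the epithelium on the surface of the mouse ovary. In MOSE-PAX8 the transcription factor PAX8, a paired-box protein of thyroid, kidney and Mullerian duct, is overexpressed, and MOSE-NEO serves as the control line. Both lines were grown under G418, a drug for cells that carry a resistance gene, at 0.05 mg/mL. Each group is 1 cell line, and neither the promoter that drives PAX8 nor whether a line is a clone or a pool is given in the sources used here.

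Matrix metalloproteases cut collagens, gelatin and other matrix proteins outside the cell. ADAM proteases sit in the cell membrane and release the outer parts of growth factors, receptors and adhesion proteins, and ADAMTS proteases are secreted and cut proteoglycans and process collagens. These 3 families share a zinc site, which TIMP proteins block in MMPs and, for some TIMPs, in certain ADAM and ADAMTS enzymes. Plasminogen activators turn plasminogen into plasmin, which degrades fibrin and can activate pro-MMPs, and serpins trap such serine proteases. The surface epithelium of the ovary takes part in the opening and repair of the follicle wall at ovulation, where these enzymes are active.

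The libraries held 30621528 to 36367825 counts in MOSE-PAX8 and 23623762 to 32057173 in MOSE-NEO. Pax8 had 2570, 2973 and 3544 counts in MOSE-PAX8 and 0, 1 and 1 in MOSE-NEO. Of 10 markers of ovarian surface epithelium and mesothelium, all were tested and 7 were called lower in MOSE-PAX8. For this and the marker counts below, 17.9% of all tested genes were called higher and 16.1% lower. The 10 markers summed to 8359 to 9828 CPM in MOSE-PAX8 and 14770 to 16380 CPM in MOSE-NEO. Of them, Krt8 (called lower) averaged 0.317 CPM in MOSE-PAX8 and 0.788 CPM in MOSE-NEO. Krt19 (not called) averaged 0.405 CPM in MOSE-PAX8 and 0.278 CPM in MOSE-NEO. CPM are library-scaled read counts, with TMM factors. The 7 fibroblast markers summed to 12400 to 13190 CPM in MOSE-PAX8 and 19960 to 23290 CPM in MOSE-NEO, nearly all of it collagens and decorin. Of these, 4 were tested and 2 were called lower, Col3a1 and Thy1, which averaged 2.77 CPM in MOSE-PAX8 and 52.4 CPM in MOSE-NEO, while Pdgfra averaged 0.0574 CPM in MOSE-PAX8 and 0.119 CPM in MOSE-NEO. The 8 leukocyte markers summed to 8.89 to 10.2 CPM in MOSE-PAX8 and 9.09 to 16.9 CPM in MOSE-NEO, with Adgre1 at 0 counts. Of the 3 tested, Ptprc was called higher, with 196 counts in MOSE-PAX8 and 1 in MOSE-NEO, and Csf1r lower, at 4.2 CPM in MOSE-PAX8 and 10.6 CPM in MOSE-NEO. The 8 granulosa and theca markers summed to 374 to 414 CPM in MOSE-PAX8 and 442 to 541 CPM in MOSE-NEO, with Fshr, Cyp19a1 and Lhcgr at 0 counts. Of the 3 tested, Foxl2 was called higher, with 182 counts in MOSE-PAX8 and 1 in MOSE-NEO, and Inha and Star lower, Star at 371 CPM in MOSE-PAX8 and 476 CPM in MOSE-NEO. The 6 endothelial markers, none tested and Cdh5 at 0 counts, summed to 0.22 to 0.524 CPM in MOSE-PAX8 and 0.348 to 1.03 CPM in MOSE-NEO. The part of these markers in the results below was not tested, and in bulk RNA fewer cells of a type cannot be told apart from less RNA per cell. The libraries MOSE-PAX8 2 and MOSE-NEO 1 stood apart by lincRNA genes, which took 0.33% and 0.317% of the counts there and 0.146% to 0.195% elsewhere.

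MOSE-PAX8 was compared with MOSE-NEO to see which matrix proteases and inhibitors differ between the lines. With 1 line per group, an effect of PAX8 cannot be told apart from other differences between the lines. Several proteases of low and middle abundance were higher in MOSE-PAX8: Adamts4, Adamts9 and Adamts5, the membrane-type enzymes Mmp15 and Mmp17, the collagenase Mmp13 and the plasminogen activator Plat. Adamts12, Adamts7 and the inhibitor Timp3 were lower. The 3 members with the highest levels, Timp2, Mmp2 and Adam9, were not called, with log2 fold changes between 0.04 and 0.14, while Timp3 and Adamts12 were abundant genes that fell. Of the 35 genes 27 had enough counts for the test, 10 of them were called higher in MOSE-PAX8 (37%, against 17.9% of all 12313 genes tested) and 5 lower (18.5%, against 16.1%), at an edgeR adjusted p below 0.05. In either direction 15 of 27 were called, against 33.9% of all genes, and the share called lower was close to that of all genes. In 17 of the 27 (63%) the libraries of the lines did not overlap, against 47.6% of all tested genes. The members' median log2 fold change was 0.09, and that of all tested genes was 0.01. A gene is called when its Benjamini-Hochberg adjusted p from edgeR's quasi-likelihood test over all tested genes is below 0.05. Of the called members 8 rose at least 2-fold and 1 fell at least 2-fold, against 6.07% and 3.15% of all tested genes. Serpine2 had enough counts for the test in its MOSE-PAX8 libraries alone, and Adamts15 in all 3 of those and 1 of MOSE-NEO, so whether they were tested depended on where they are high, and the counts above are a description.

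**Figure D1:**
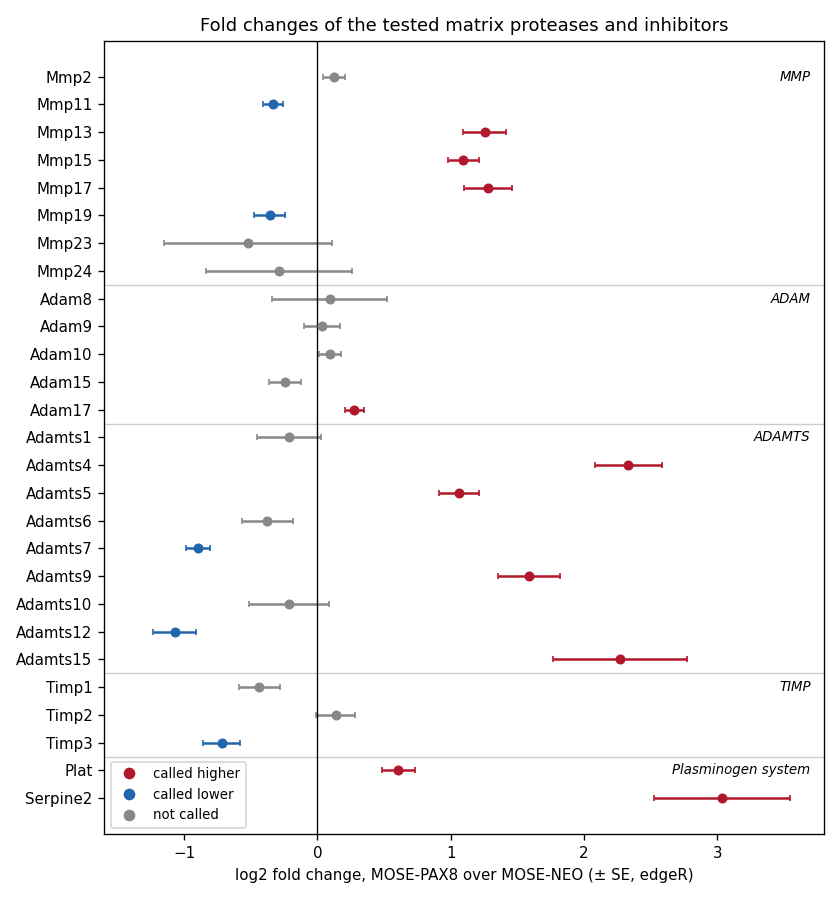
Log2 fold changes of MOSE-PAX8 over MOSE-NEO on the horizontal axis for the 27 tested genes, by family, with bars of 1 standard error. Red points are called higher (10 genes), blue points called lower (5 genes) and grey points not called; Serpine2, Adamts4 and Adamts15 lie farthest right and Adamts12 farthest left.

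Among the secreted MMPs, the collagenase Mmp13 was higher in MOSE-PAX8, the stromelysin-type Mmp11 and the broadly active Mmp19 were slightly lower, and the gelatinase Mmp2 was far above all others in both lines. Mmp2, gelatinase A, which cuts denatured collagen and type IV collagen, had 882, 838 and 862 CPM in the MOSE-PAX8 libraries 1 to 3 and 749, 826 and 793 CPM in the MOSE-NEO libraries. The libraries of the lines did not overlap, but the difference was small (log2 fold change 0.12 ± 0.08 SE, edgeR adjusted p = 0.275). Mmp9, gelatinase B, had 3 counts in the MOSE-PAX8 libraries together and 0 in MOSE-NEO, so gelatinase transcripts were almost wholly those of Mmp2.

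Mmp13, which cuts fibrillar collagens, had 9.65, 8.49 and 10.2 CPM in MOSE-PAX8 and 3.53, 4.78 and 3.62 CPM in MOSE-NEO. Every MOSE-PAX8 library was above every MOSE-NEO library, with a 2.39-fold rise (log2 fold change 1.26 ± 0.16 SE, edgeR adjusted p = 0.000597). Mmp11, stromelysin 3, which cuts few matrix proteins itself, had 116, 119 and 115 CPM in MOSE-PAX8 and 147, 138 and 156 CPM in MOSE-NEO. It fell by 0.33 on the log2 scale (± 0.07 SE, edgeR adjusted p = 0.00831), with no overlap between the lines. Mmp19 had 13.5, 12.5 and 12.3 CPM in MOSE-PAX8 and 14, 16.6 and 18.5 CPM in MOSE-NEO (log2 fold change -0.36 ± 0.12 SE, edgeR adjusted p = 0.0456). This call was marginal and ended in 11 of 16 alternative settings, with an adjusted p of 0.109 without MOSE-NEO replicate 2, 0.154 without MOSE-NEO replicate 3, and 0.0711, 0.0974 and 0.145 without MOSE-PAX8 replicates 1, 2 and 3. In Mmp19, 22.3% of the exonic bases overlap the gene Tmem198b on the opposite strand, which had 10.2 and 11 CPM in MOSE-PAX8 and MOSE-NEO, and the strand setting of the counting is not given.

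Mmp13, Mmp3 and Mmp10 lie in a cluster of 10 Mmp genes on chromosome 9 between bases 7272514 and 7699585 (mm10). Their promoters are shown because all 3 carry the same pair of motifs while their levels in these cells differed. The sequences, credited to RefSeq on GRCm38.p6, run from 250 bases before to 50 after the transcript start, all on the plus strand. Capitals mark the AP-1 site (TGACTCA on either strand, whose reverse complement is TGAGTCA), bound by Fos and Jun proteins, and the TATA box (TATAAA).
Mmp13 (chr9:7272264-7272563): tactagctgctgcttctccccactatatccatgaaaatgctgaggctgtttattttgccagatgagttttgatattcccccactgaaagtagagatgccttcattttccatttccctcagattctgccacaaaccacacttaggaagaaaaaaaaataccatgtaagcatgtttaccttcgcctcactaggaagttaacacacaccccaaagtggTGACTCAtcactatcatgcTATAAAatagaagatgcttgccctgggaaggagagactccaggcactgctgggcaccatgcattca
Mmp3 (chr9:7445572-7445871): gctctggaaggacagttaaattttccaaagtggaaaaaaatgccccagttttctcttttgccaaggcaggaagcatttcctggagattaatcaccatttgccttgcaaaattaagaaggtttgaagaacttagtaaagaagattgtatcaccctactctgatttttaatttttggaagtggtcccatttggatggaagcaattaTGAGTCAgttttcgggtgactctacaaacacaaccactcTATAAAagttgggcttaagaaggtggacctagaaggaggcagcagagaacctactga
Mmp10 (chr9:7502092-7502391): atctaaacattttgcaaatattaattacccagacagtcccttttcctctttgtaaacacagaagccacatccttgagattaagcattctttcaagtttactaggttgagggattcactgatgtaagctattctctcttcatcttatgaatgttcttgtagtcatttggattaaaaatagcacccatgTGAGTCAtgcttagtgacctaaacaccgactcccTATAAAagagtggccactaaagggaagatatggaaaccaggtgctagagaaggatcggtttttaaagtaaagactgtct
The AP-1 letters begin 35 bases before the start in Mmp13, 46 in Mmp3 and 63 in Mmp10, and the TATA letters begin 16, 7 and 29 bases before it. Of all 32851 RefSeq mouse promoters of this length, 5.2% hold the AP-1 letters and 13.6% the TATA letters. Among the 21 members with a promoter there, Adam19 was the other one with an AP-1 match and Adamts1 the other one with a TATA match. The RUNX letters TGTGGT, searched on both strands, were found in Mmp13, Adam15, Mmp23 and Adam19, and in 16.8% of all promoters. The letters GTCACGC or GTCATGC, a core of the PAX paired-domain motif, were found in Mmp10, where they overlap the AP-1 letters, and in Timp1, and in 4.23% of all promoters. Counted by gene, as the members are, the shares were 5.95% for AP-1, 15.7% for TATA, 18.9% for RUNX and 4.86% for PAX letters. A match is a description of the letters and not a measured binding site.

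Counts over the cluster were uneven although the 3 promoters share these letters. Mmp13 had 353, 270 and 331 raw counts in MOSE-PAX8 and 111, 110 and 109 in MOSE-NEO. Mmp10, stromelysin 2, which cuts proteoglycans and activates collagenases, had 10, 9 and 10 counts in MOSE-PAX8 and 1, 1 and 2 in MOSE-NEO, too few for the test. Mmp3, stromelysin 1, its closest relative, had 0 counts in all 6 libraries, where 3 counts correspond to 0.082 to 0.13 CPM. Mmp3 shares 8.39% and Mmp10 8.37% of its 50-base words with other genes, mainly with each other, so their counts are uncertain if reads with several alignments were dropped. Of the other genes in the cluster, Mmp27 had 43, 23 and 43 counts in MOSE-PAX8 and 9, 6 and 11 in MOSE-NEO, and it was called higher (log2 fold change 1.8 ± 0.35 SE, edgeR adjusted p = 0.00478). Mmp8, the neutrophil collagenase, had 7, 11 and 8 counts in MOSE-PAX8 and 1, 0 and 2 in MOSE-NEO. Mmp12 had 3 counts in MOSE-PAX8 and 2 in MOSE-NEO, and 5 of the 10 genes, Mmp3 among them, were at 0 in every library.

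**Figure D2:**
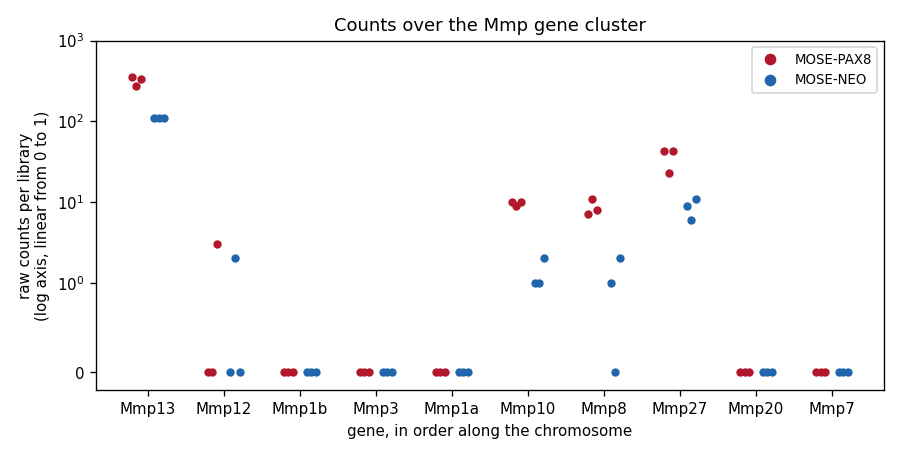
Raw counts per library (vertical axis, logarithmic above 1 and linear from 0 to 1) for the 10 genes of the chromosome 9 Mmp cluster in order along the chromosome, MOSE-PAX8 in red left of MOSE-NEO in blue. Mmp13 has 270 to 353 counts in MOSE-PAX8 and 109 to 111 in MOSE-NEO, Mmp10, Mmp8 and Mmp27 lie lower with MOSE-PAX8 on top, and 5 genes stay at 0.

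The membrane-type MMPs in the list are held at the cell surface. Of them 2 rose, against 17.9% of all tested genes, 1 was not called and 1 was too low for the test. Mmp15 (MT2-MMP, chromosome 8, 95352268 to 95375080), with a transmembrane anchor and the ability to activate pro-Mmp2, had 24.4, 26.3 and 29.7 CPM in MOSE-PAX8 and 11.6, 14.3 and 11.8 CPM in MOSE-NEO. It was 2.13-fold higher with no overlap (log2 fold change 1.09 ± 0.12 SE, edgeR adjusted p = 0.000216). Mmp17 (MT4-MMP), held by a lipid anchor, had 11.9, 8.71 and 10.7 CPM in MOSE-PAX8 and 4.22, 3.48 and 5.11 CPM in MOSE-NEO, a 2.43-fold rise (log2 fold change 1.28 ± 0.18 SE, edgeR adjusted p = 0.000958). Both rises held in all 16 alternative settings. Mmp14, a more abundant membrane-type MMP outside the list, averaged 243 ± 22.8 CPM in MOSE-PAX8 and 263 ± 33.2 CPM in MOSE-NEO (SD, n = 3 each). It was not called (log2 fold change -0.11 ± 0.11 SE, edgeR adjusted p = 0.49). Mmp24 (MT5-MMP) averaged 0.515 ± 0.213 CPM in MOSE-PAX8 and 0.623 ± 0.476 CPM in MOSE-NEO (SD, n = 3 each), within the spread of the libraries. Mmp23, whose enzyme has an unusual cysteine-rich region in place of the usual hemopexin domain, averaged 0.482 ± 0.409 CPM in MOSE-PAX8 and 0.671 ± 0.383 CPM in MOSE-NEO with overlapping libraries, and Mmp16 had a single count, in MOSE-PAX8.

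Of the ADAM proteases, 1 of 5 tested genes was called, against 33.9% of all tested genes. Adam17 (chromosome 12), which sheds tumour necrosis factor and ligands of the EGF receptor, had 117, 108 and 112 CPM in MOSE-PAX8 and 90.5, 90.7 and 97.2 CPM in MOSE-NEO. The rise was small, with no overlap between the lines (log2 fold change 0.28 ± 0.07 SE, edgeR adjusted p = 0.0174). The median log2 fold change over chromosome 12 was 0.19, and with that median removed the value of Adam17 was 0.09 (edgeR adjusted p = 0.414). The call also ended without MOSE-NEO replicate 1 (0.051) or 2 (0.0697) and without MOSE-PAX8 replicate 1 (0.0744) or 3 (0.0653). Iah1, which shares 4.35% of the exonic bases of Adam17 on the opposite strand, was higher too, with 51.1 CPM in MOSE-PAX8 and 37 CPM in MOSE-NEO. The part of Iah1 in the value of Adam17 was not tested.

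The abundant shedding enzymes Adam9 and Adam10 had similar values in both lines. Adam9 had 862, 592 and 751 CPM in MOSE-PAX8 and 746, 653 and 752 CPM in MOSE-NEO, so the MOSE-NEO libraries lay inside the range of MOSE-PAX8 (log2 fold change 0.04 ± 0.14 SE). Adam10, which cuts Notch and cadherins, had 349, 330 and 342 CPM in MOSE-PAX8 and 296, 349 and 312 CPM in MOSE-NEO (0.1 ± 0.09 SE). Adam15, which carries an integrin-binding loop, had 29.9, 36.2 and 41 CPM in MOSE-PAX8 and 40.6, 40 and 46.1 CPM in MOSE-NEO, with overlap and no call (-0.24 ± 0.12 SE, edgeR adjusted p = 0.158). Adam8, best known from leukocytes, averaged 2.35 ± 1.28 CPM in MOSE-PAX8 and 2.2 ± 0.926 CPM in MOSE-NEO (SD, n = 3 each), and its highest libraries were MOSE-PAX8 2 and MOSE-NEO 1, the lincRNA-rich ones. Adam12 had 13 counts in MOSE-PAX8 and 5 in MOSE-NEO, the catalytically inactive Adam23 had 15 in MOSE-PAX8 and 7 in MOSE-NEO, and Adam19 had 0 in every library.

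Of 9 tested ADAMTS genes 6 were called, against 33.9% of all tested genes, 4 of them higher (17.9% of all genes) and 2 lower (16.1%). Of the 5 members of the group that cuts aggrecan and versican, 4 rose in MOSE-PAX8 and none fell, with Adamts15 tested mainly through its MOSE-PAX8 libraries. In CPM per kilobase of exon the 5 summed to 60.15, 68.48 and 72.73 in MOSE-PAX8 and 71.58, 43.13 and 88.05 in MOSE-NEO. These sums overlapped, and most of each came from Adamts1, which was not called. Adamts4 (aggrecanase 1, chromosome 1, 171250421 to 171260637) had 4.92, 6.13 and 5.52 CPM in MOSE-PAX8 and 0.731, 1.13 and 1.43 CPM in MOSE-NEO. The lines were clearly apart, with a log2 fold change of 2.33 ± 0.25 SE (edgeR adjusted p = 0.000234). Adamts5 (aggrecanase 2, chromosome 16, 85856173 to 85901828) had 61.4, 67.5 and 78.4 CPM in MOSE-PAX8 and 32.6, 26.6 and 39.7 CPM in MOSE-NEO, a 2.09-fold rise (log2 fold change 1.06 ± 0.15 SE, edgeR adjusted p = 0.00089). Its neighbour Adamts1 (chromosome 16, 85793827 to 85803113), which the ovary uses at ovulation, had 258, 289 and 310 CPM in MOSE-PAX8 and 353, 201 and 439 CPM in MOSE-NEO. The MOSE-PAX8 libraries lay inside the wide range of MOSE-NEO (log2 fold change -0.21 ± 0.24 SE, edgeR adjusted p = 0.543), and without MOSE-NEO replicate 2 the gene was called lower (-0.48, adjusted p = 0.031).

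Adamts9 (chromosome 6, 92772699 to 92943492), which cuts versican and is needed for primary cilia, had 70, 93.3 and 85.4 CPM in MOSE-PAX8 and 26.7, 38 and 18.3 CPM in MOSE-NEO. The 3.01-fold rise was larger than the spread within either line (log2 fold change 1.59 ± 0.23 SE, edgeR adjusted p = 0.00112). Exons of A730049H05Rik on the opposite strand cover 9.18% of the exonic bases of Adamts9, and this gene had 41.7 and 54.5 CPM in MOSE-PAX8 and MOSE-NEO without a call. Adamts15, a versican- and aggrecan-cutting enzyme of low abundance, had 0.984, 2.2 and 1.08 CPM in MOSE-PAX8 and 0.222, 0.522 and 0.166 CPM in MOSE-NEO. The lines did not overlap (log2 fold change 2.27 ± 0.5 SE, edgeR adjusted p = 0.00846), but its highest MOSE-PAX8 library is the lincRNA-rich one. Leaving out MOSE-PAX8 2 and MOSE-NEO 1 gave 1.64 with an edgeR adjusted p of 0.0531.

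Adamts7 and Adamts12, a pair of enzymes with mucin-type regions that cut cartilage oligomeric matrix protein, both fell. Adamts12 (chromosome 15, 11064790 to 11349231) had 272, 250 and 186 CPM in MOSE-PAX8 and 546, 532 and 409 CPM in MOSE-NEO, so every MOSE-PAX8 library was below every MOSE-NEO library. It was 2.1-fold lower (log2 fold change -1.07 ± 0.16 SE, edgeR adjusted p = 0.00129). Adamts7 (chromosome 9, 90163069 to 90208071) had 49.1, 52.2 and 44.5 CPM in MOSE-PAX8 and 97.7, 84.7 and 88.8 CPM in MOSE-NEO, 1.86-fold lower (log2 fold change -0.9 ± 0.09 SE, edgeR adjusted p = 0.000145). The gene Tbc1d2b on the opposite strand shares 1.94% of the exonic bases of Adamts7 and was lower too, with 92.4 CPM in MOSE-PAX8 and 148 CPM in MOSE-NEO. The falls of Adamts7 and Adamts12 held in all 16 alternative settings.

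The fibrillin-binding pair Adamts6 and Adamts10 was not called. Adamts10, which acts in microfibril assembly, had 26.1, 52.4 and 31.5 CPM in MOSE-PAX8 and 57, 42.2 and 28.1 CPM in MOSE-NEO, with the highest value of each line in its lincRNA-rich library (log2 fold change -0.21 ± 0.3 SE, edgeR adjusted p = 0.629). Adamts6 had 4.43, 6.13 and 4.01 CPM in MOSE-PAX8 and 7.21, 5.96 and 5.68 CPM in MOSE-NEO, overlapping slightly (log2 fold change -0.37 ± 0.19 SE, edgeR adjusted p = 0.178). Without MOSE-PAX8 replicate 2 it was called lower (-0.57, adjusted p = 0.0443). Adamts2, the enzyme that removes the amino-terminal propeptide of fibrillar procollagens, had 11, 16 and 15 counts in MOSE-PAX8 and 2, 2 and 4 in MOSE-NEO, below the count filter of the test.

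**Figure D3:**
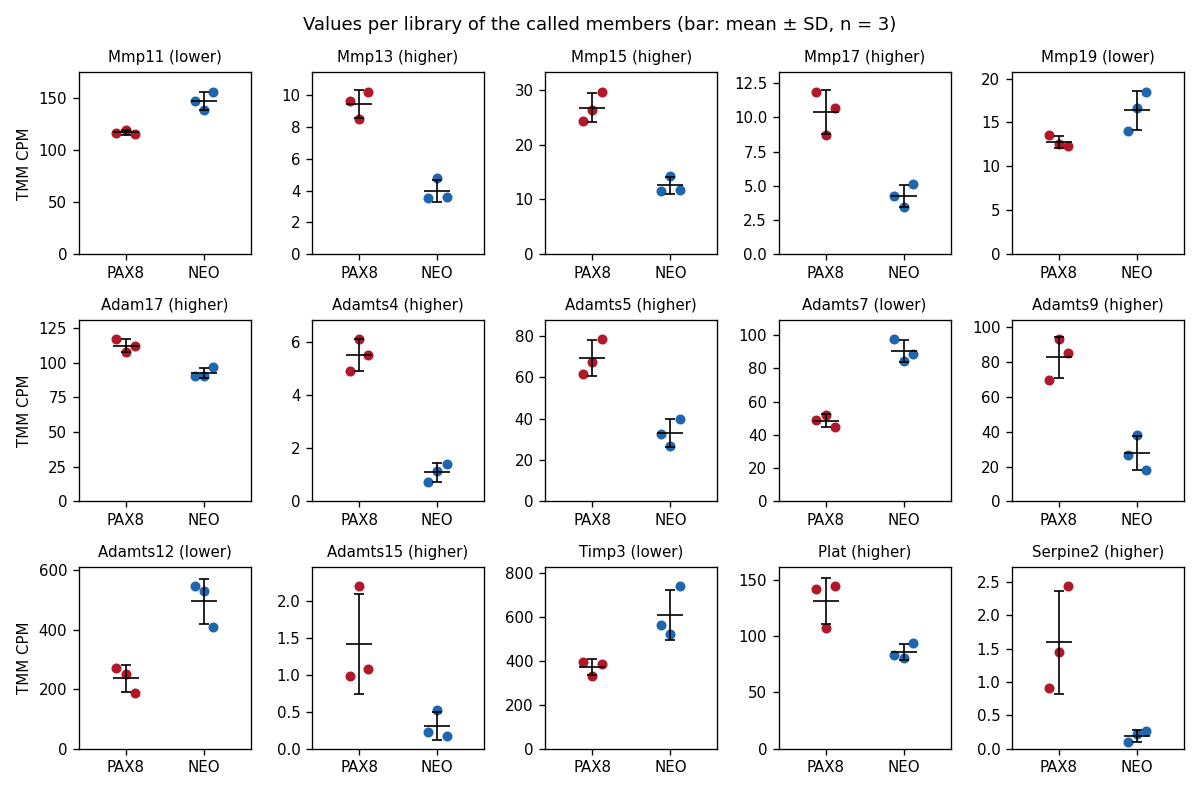
Values per library in TMM-scaled CPM (vertical axes from 0) for the 15 called genes, MOSE-PAX8 in red left of MOSE-NEO in blue, with the mean and SD of 3 libraries in black. In each panel the points of the lines do not overlap, and the gap is narrow for Mmp19, Adam17 and Plat.

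None of the TIMP inhibitors was called higher: Timp3 fell, Timp1 did not pass the test, and Timp2, by far the most abundant, was not called. Timp3 (chromosome 10, 86300372 to 86349506), which binds to the matrix and inhibits ADAM17 and the aggrecanases as well as MMPs, had 395, 328 and 385 CPM in MOSE-PAX8 and 564, 521 and 738 CPM in MOSE-NEO. The lines did not overlap, and Timp3 fell by 0.72 on the log2 scale (± 0.14 SE, edgeR adjusted p = 0.00463). Exons of Syn3 on the opposite strand cover 21.3% of the exonic bases of Timp3, but Syn3 itself had only 0.714 CPM in MOSE-PAX8 and 1.04 CPM in MOSE-NEO. Timp1, a soluble inhibitor of most secreted MMPs, had 63, 62.5 and 59.5 CPM in MOSE-PAX8 and 64.2, 105 and 81.2 CPM in MOSE-NEO. The MOSE-PAX8 libraries were tightly grouped just below the lowest MOSE-NEO library (log2 fold change -0.44 ± 0.15 SE, edgeR adjusted p = 0.0598), and DESeq2 called the gene lower (adjusted p = 0.0165), as did the fit without MOSE-NEO replicate 1 (0.00648). Timp2, which inhibits Mmp2 and also takes part in its activation, had 2813, 2126 and 2768 CPM in MOSE-PAX8 and 2176, 2081 and 2753 CPM in MOSE-NEO, with overlapping libraries (0.14 ± 0.15 SE).

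In the plasminogen system, the activator Plat and the inhibitor Serpine2 were both called higher, at very different levels. Plat (tissue plasminogen activator, chromosome 8, 22757727 to 22782844) had 142, 108 and 145 CPM in MOSE-PAX8 and 83.1, 81 and 94.4 CPM in MOSE-NEO. Its lowest MOSE-PAX8 library was above all MOSE-NEO libraries, a 1.52-fold rise (log2 fold change 0.61 ± 0.12 SE, edgeR adjusted p = 0.00541). Serpine2 (protease nexin 1, chromosome 1, 79794197 to 79861180), which inhibits thrombin and plasminogen activators, had 0.902, 1.45 and 2.44 CPM in MOSE-PAX8 and 0.0953, 0.217 and 0.266 CPM in MOSE-NEO. The log2 fold change of 3.04 ± 0.51 SE was the largest of the tested members (edgeR adjusted p = 0.00222), but it rests on 158 counts in MOSE-PAX8 and 16 in MOSE-NEO. Serpine2 reached the count filter in MOSE-PAX8 libraries only, so its call and its rank depended on that filter and are a description.

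Levels of different genes can be compared per length, as CPM per kilobase of exon. Timp2 stood at 659 in MOSE-PAX8 and 600 in MOSE-NEO on this scale, above 99.9% of genes in MOSE-PAX8, followed by Mmp2 at 255 in MOSE-PAX8 and 234 in MOSE-NEO, and Adam9 at 179 in MOSE-PAX8 and 174 in MOSE-NEO. The proteases called higher lay well below them. In MOSE-PAX8 Plat reached 21.05, Adam17 15.71, Adamts5 6.4, Adamts9 5.51, Mmp15 4.96, Mmp13 3.53, Mmp17 1.57, Adamts4 1.15 and Adamts15 0.1371. In MOSE-NEO, Adamts12 was at 45.4, close to the level of Timp3 in MOSE-PAX8 (45.3), and it was at 21.6 in MOSE-PAX8. Within the ADAMTS family Adamts1 and Adamts12 led in both lines, at 53.9 and 21.6 in MOSE-PAX8, while in MOSE-NEO their libraries overlapped around means of 62.4 and 45.4. Below them Adamts7 came before Adamts5 and Adamts9 in MOSE-PAX8 (7.74, 6.4 and 5.51), while in MOSE-NEO Adamts7 (14.4) stood well above Adamts5 (3.06) and Adamts9 (1.84).

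Summed over families, the level per kilobase differed little where a single abundant gene dominates. The 12 MMP genes of the list summed to 317.5, 305.2 and 312.1 in MOSE-PAX8 and 284, 304.8 and 301.3 in MOSE-NEO, of which Mmp2 made up 81.9% ± 0.454 in MOSE-PAX8 and 78.9% ± 1.28 in MOSE-NEO (SD, n = 3 each). The ADAMTS genes of the list summed to 96.6, 107 and 101 in MOSE-PAX8 and 145, 111 and 144 in MOSE-NEO, with no overlap. Adamts7 and Adamts12 together accounted for 32.7, 31.2 and 24.1 of it in MOSE-PAX8 and 65.6, 62.1 and 51.6 in MOSE-NEO. The TIMP genes summed to 841, 656 and 825 in MOSE-PAX8 and 700, 716 and 889 in MOSE-NEO. The share of Timp3 in that sum was 5.87% ± 0.222 in MOSE-PAX8 and 9.67% ± 0.66 in MOSE-NEO, and that of Timp2 was 85% ± 1.64 in MOSE-PAX8 and 78% ± 2.94 in MOSE-NEO (SD, n = 3 each).

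**Figure D4:**
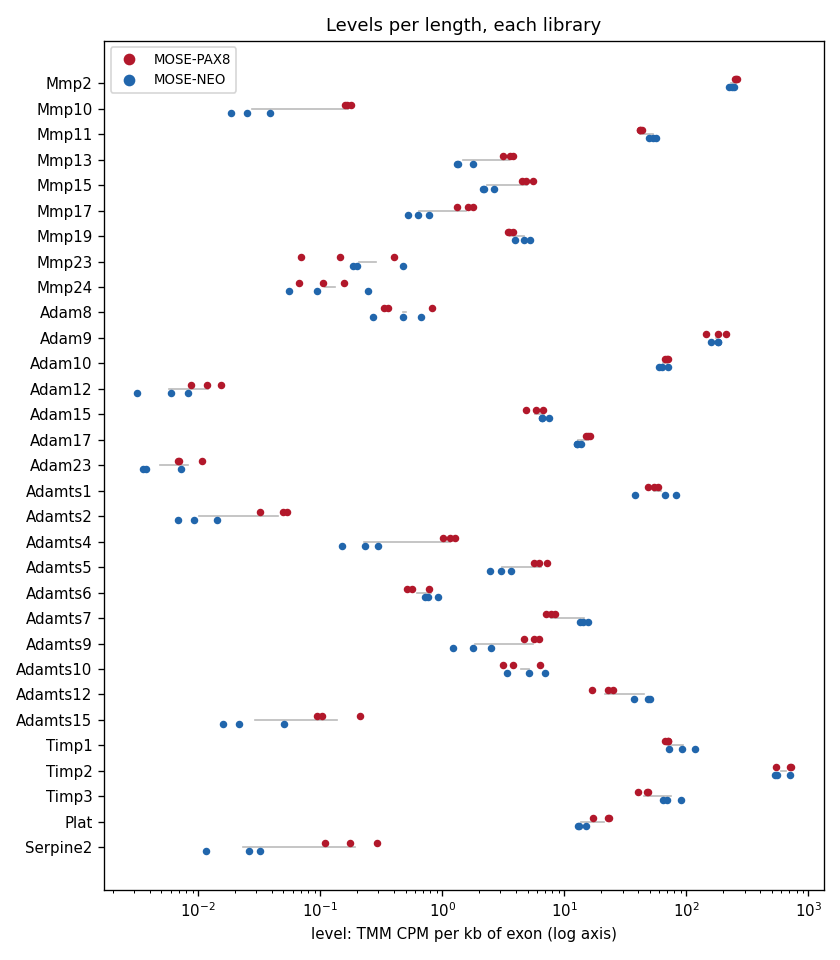
Levels in TMM-scaled CPM per kilobase of exon (horizontal log axis) for the members with at least 10 counts in total, each library a point, MOSE-PAX8 in red above MOSE-NEO in blue, joined at the means by a grey line. Timp2, Mmp2 and Adam9 lie at the right with close colours, while Adamts4, Adamts15, Mmp10, Adamts2 and Serpine2 show wide gaps at low levels.

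Other genes of matrix proteolysis were called in both directions. Of 129 further genes listed by function 72 were tested, 21 were called higher (29.2%, against 17.9% of all genes) and 20 lower (27.8%, against 16.1%), with a median log2 fold change of -0.06. Of the 21, 5 (Mmp28, Adamts8, Adamts19, Papln and Masp1) reached the count filter in MOSE-PAX8 libraries only, and of the 20, Adamdec1 reached it in MOSE-NEO libraries only, so these counts are a description. Among the proprotein convertases, which cut the propeptides of many MMP and ADAM enzymes, 2 of 5 rose and 1 fell. Furin was 1.41-fold and Pcsk5 1.89-fold higher, and Pcsk6 1.36-fold lower (edgeR adjusted p = 0.000817, 7.8e-05 and 0.00969). Furin and Pcsk6 lie on chromosome 7, whose tested genes had a median log2 fold change of 0.27, against 0.5 for Furin and -0.44 for Pcsk6. Pcsk5, at 0.92, lies on chromosome 19 with a median of 0.17. Of 7 tested regulators of Adam10 and Adam17, Tspan15, a tetraspanin that guides ADAM10, was 1.87-fold higher, and Rhbdf2 (iRhom2), a carrier of ADAM17, and Tspan17 were 1.79-fold and 3.22-fold lower (edgeR adjusted p = 0.000278, 0.000591 and 0.00113). Reck, a membrane-anchored MMP inhibitor, had 4.69 ± 0.418 CPM in MOSE-PAX8 and 5.79 ± 0.416 CPM in MOSE-NEO (SD, n = 3 each) and was not called. The substrate gene versican (Vcan) was 3.75-fold lower, at 0.656 ± 0.193 CPM in MOSE-PAX8 and 2.47 ± 0.699 CPM in MOSE-NEO (SD, n = 3 each, edgeR adjusted p = 0.00231), and aggrecan (Acan) had 0 counts in all libraries.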

How the data were processed

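RNA of 6 libraries, 3 of MOSE-PAX8 and 3 of MOSE-NEO, was analysed from the raw read counts per gene deposited by the authors, 1 table per library. Per the submitters' processing notes, cutadapt 1.13, STAR, HTSeq 0.6.1p1 and DESeq2 were used with the mm10 build. How strand and multiply aligned reads were handled in counting, and which annotation was used, is not stated in the sources. Symbols, coordinates (mm10, counted from 1) and exon lengths came from GENCODE M21, which matched 24991 of 25006 identifiers. Counts were fitted over all 12313 genes kept by filterByExpr (about 10 counts in 3 libraries) in R 4.3.3 by edgeR 4.0.16 (quasi-likelihood test, TMM scaling, Benjamini-Hochberg adjustment). The SE of a log2 fold change was worked back from its test statistic. Alternatives used DESeq2 1.42.0, limma-voom 3.58.1 and further settings given below. The fit was also run on data simulated from the MOSE-NEO levels. There it recovered 58.3% of 1.5-fold, 75.5% of 2-fold and 97.4% of 4-fold changes. Of the genes it called there at an adjusted p below 0.05, 9% had no change, more than that threshold allows for.

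The members, lists and tests were chosen with earlier results of these data known. All 35 members are named, and of the other genes the rule took up to 3 called genes per direction and list, of which some are not reported here. Genes outside it were chosen after their values were seen. Separate cultures are not stated for the libraries of either line, and the p-values therefore reflect library-to-library spread only, which may be technical. Within a line, any pair of libraries varied at least 13.3 times more than sampling alone gives. A limit of 3 counts for a count of 0 covers counting error only. Overlapping exons of other genes were found for 11 members. No promoter was shown or searched for Mmp2, Mmp9, Mmp16, Mmp17, Mmp19, Adam9, Adam12, Adamts4, Adamts5, Adamts6, Adamts7, Adamts10, Adamts15 and Plat.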

Additional observations from a re-analysis of the deposited data

How the results depend on the processing

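Of the 15 called members 9 kept their call and direction in all alternatives that tested them, and none turned. Mmp11, Timp3 and Plat lost theirs only in the test against a fold of 1.5, Adamts15 only without both lincRNA-rich libraries, and Mmp19 and Adam17 in 11 and 6 settings; the causes were not tested. The test against a fold of 1.5 called 8 members higher and 2 lower, 13 and 8 of the other matrix proteolysis genes, and 1070 of all genes, against 4178, as its stricter null implies. With 1 library left out in turn, 9 to 11 members were called higher and 4 to 6 lower. Of the other genes 19 to 22 were called higher and 15 to 19 lower, and of all genes 2859 to 3908 were called. The number of members without overlap was then 17 to 20. Leaving a library out cannot lower that number, so it is no check of the separation. The replicate numbers did not pair the libraries, with correlations of deviations of -0.47, 0.05 and 0.4 between same-numbered libraries, and not every library correlated best with its own number. The fit with the replicate number as a block called 10 members higher and 4 lower, and 3933 of all genes. With 1 library left out in turn, log2 fold changes of members not called turned sign within ranges of -1.45 to 0.066 for Mmp23, -0.65 to 0.52 for Mmp24, -0.45 to 0.44 for Adam8, -0.095 to 0.17 for Adam9, -0.48 to 0.048 for Adamts1 and -0.56 to 0.060 for Adamts10. Adam8 was also at -0.097 with both lincRNA-rich libraries out and at -0.17 with the chromosome median removed. For Mmp3, Mmp9, Mmp10, Mmp16, Adam12, Adam19, Adam23 and Adamts2 depth limits any comparison.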

Other observations

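Transcription factors and surface proteins known to induce MMP genes were tested in 13 cases, of which 7 were called higher in MOSE-PAX8 and 1 lower, against 17.9% and 16.1% of all tested genes. Among those called higher the smallest adjusted p-values were those of Ets1, at 115 ± 6.73 CPM in MOSE-PAX8 and 74.6 ± 3.13 CPM in MOSE-NEO (SD, n = 3 each, edgeR adjusted p = 0.000406), Fos, 1.88-fold higher (0.00207), and Runx1, 3.3-fold higher (0.00371). Fosl2, the most abundant of the Fos genes of this list, was 1.5-fold lower, at 471 ± 21.3 CPM in MOSE-PAX8 and 705 ± 37.2 CPM in MOSE-NEO (adjusted p = 0.000969). Jun had 94.8 ± 5.31 CPM in MOSE-PAX8 and 98.5 ± 14.3 CPM in MOSE-NEO and was not called.

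Of 10 tested cathepsin, legumain and cystatin genes, Lgmn, the asparaginyl endopeptidase legumain, was 1.94-fold higher, and 4 were called lower, Ctso 2.27-fold, Ctsz 1.41-fold and Cstb 1.34-fold among them (edgeR adjusted p = 0.000286, 0.000428, 0.00857 and 0.0239). Of the astacin group, both tested genes were lower: Bmp1, the procollagen C-proteinase, 1.58-fold and its enhancer Pcolce 1.41-fold (edgeR adjusted p = 0.00176 and 0.00773). Bmp1 lies on chromosome 14, whose tested genes had a median log2 fold change of -0.43. Among ADAMTS and ADAMTS-like genes outside the 35, 8 were tested, 4 were called higher and 3 lower. For this group and those before it, the shares of all tested genes were 17.9% called higher and 16.1% called lower. Adamts8, Adamts19 and Papln reached the count filter in MOSE-PAX8 libraries only, so the counts of this group are a description. Adamtsl5 was 1.97-fold higher and Papln 4.02-fold higher (edgeR adjusted p = 0.00147 and 0.00247), and the other two called higher were Adamts8, with 126 counts in MOSE-PAX8 and 7 in MOSE-NEO, and Adamts19, with 92 counts in MOSE-PAX8 and 2 in MOSE-NEO. Adamts3 was 3.03-fold lower (edgeR adjusted p = 0.0052), Adamts14, a procollagen N-proteinase like Adamts2, was 2.79-fold lower, and Adamtsl4 3.32-fold lower (edgeR adjusted p = 0.000334 and 2e-05).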
